A study of Mus musculus with 17 samples.

Results

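The presomitic mesoderm and segmentation clock genes described here are 10 genes chosen by name: Hes7, Lfng, Dll1, Dll3, Tbx6, Msgn1, Mesp2, Ripply1, Ripply2 and Tcf15. All 10 were found among the 41709 gene symbols of the deposited table, in all 17 libraries. Each library was made from the RNA of 1 whole C57BL/6J mouse embryo, and its values are TPM, an abundance of transcripts that is scaled to gene length and to the same total in every library. At E9.5, embryonic day 9.5, 4 wild-type embryos (Disp1_WT) were compared with 4 embryos that carried a CS and an INDEL allele of Disp1 (Disp1_CS_INDEL), from crosses of Disp1CS/+ females to Disp1INDEL/+ males. At E8.5, 4 wild-type embryos (Myo10_WT) were compared with 5 Myo10m1J/m1J embryos, in which both copies of Myo10 are the m1J allele (Myo10_m1J), from crosses between Myo10m1J/+ parents. Disp1 encodes Dispatched, which releases lipid-modified Hedgehog ligands from the cells that make them, and Myo10 encodes myosin X, a motor of filopodia. Every embryo is a separate animal, the labels do not say which embryos were littermates, and the controls carry no mutant allele. Since whole embryos were taken, fewer presomitic cells and less RNA per presomitic cell cannot be told apart in any value below.

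The presomitic mesoderm is the unsegmented tissue at the tail end of the embryo that buds off somites, the precursors of vertebrae, muscle and dermis, in a head to tail order. Its cells carry an oscillator, the segmentation clock, in which Notch signalling switches on the repressor Hes7 and Hes7 switches off itself and Lfng. Tbx6 and Msgn1 set the presomitic fate under Wnt signalling from the tail bud, Mesp2 and the Ripply genes place the next somite boundary, and Tcf15 marks the somite that has formed.

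Before the groups were compared, 3 embryos stood apart from the others of their age. Disp1_WT replicate 3 and Disp1_CS_INDEL replicate 1 were low in posterior Hox and tail bud transcripts at E9.5, and Myo10_WT replicate 1 was low in them at E8.5. They were recognised from these values, so the counts that follow describe them and test nothing, and they are called the low posterior embryos below. Hoxc10, a gene of the posterior body, read 0.134 and 1.46 TPM in the low E9.5 pair and between 40.8 and 54.6 TPM in the other 6. Of 21 listed tail bud and posterior Hox genes, 17 were lower in both of the pair than in every other E9.5 embryo, 81.0% of them, against 2.22% of all 13205 genes with a mean of at least 1 TPM. In Myo10_WT replicate 1, 13 of the 21 (61.9%) were the lowest of all 9 E8.5 embryos, against 1.55% of all genes. None of 6 neural markers was lowest in either case, and their summed level in the pair, 228 and 236 TPM, lay above the 186 to 216 TPM of the other E9.5 embryos. The cause was not tested, and each comparison is given with and without these embryos. Disp1_WT replicate 3 also had the highest E9.5 sums of 9 yolk sac endoderm markers (963 TPM) and of 4 decidua markers (570 TPM), whose part in the results was not tested. Myo10 was 25.8 ± 6.02 TPM in Myo10_WT (SD, n = 4) and 3.61 ± 0.89 TPM in Myo10_m1J (SD, n = 5). For Disp1 the 4 Disp1_WT embryos averaged 17.5 ± 1.74 TPM and the 4 Disp1_CS_INDEL embryos 14.3 ± 1.98 TPM (SD), and the labels do not say whether these alleles lower the transcript.

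The 10 genes divided in the low E9.5 pair. Msgn1, Tbx6, Hes7 and Ripply2 were near 0 or listed at 0 there, whereas Lfng, Dll1 and Ripply1 stayed within or above the range of the other 6 embryos. Shown for this contrast are 5 promoters, 4 from the genes that were near 0 and that of Lfng, which was not lower. They are the 250 bases before the gene start in RefSeq, given on the gene's strand with the coordinates of build GRCm38.p6, and capitals mark the motif matches described after them.
Hes7 (chr11:69120203-69120452, plus strand): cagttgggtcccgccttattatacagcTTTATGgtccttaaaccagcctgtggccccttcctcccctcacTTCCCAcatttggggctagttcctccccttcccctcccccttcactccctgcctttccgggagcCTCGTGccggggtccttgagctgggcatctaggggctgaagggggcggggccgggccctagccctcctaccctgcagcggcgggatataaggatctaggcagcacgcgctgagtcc
Msgn1 (chr12:11208949-11209198, minus strand): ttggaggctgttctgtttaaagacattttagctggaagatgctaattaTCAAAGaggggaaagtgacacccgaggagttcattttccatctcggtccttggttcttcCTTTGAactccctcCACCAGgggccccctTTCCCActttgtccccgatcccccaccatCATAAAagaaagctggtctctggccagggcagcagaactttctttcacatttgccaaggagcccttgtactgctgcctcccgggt
Tbx6 (chr7:126781233-126781482, plus strand): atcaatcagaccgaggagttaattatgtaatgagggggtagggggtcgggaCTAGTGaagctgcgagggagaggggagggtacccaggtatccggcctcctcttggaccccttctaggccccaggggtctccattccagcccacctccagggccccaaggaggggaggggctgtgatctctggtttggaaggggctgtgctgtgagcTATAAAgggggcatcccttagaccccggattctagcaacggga
Ripply2 (chr9:87015287-87015536, plus strand): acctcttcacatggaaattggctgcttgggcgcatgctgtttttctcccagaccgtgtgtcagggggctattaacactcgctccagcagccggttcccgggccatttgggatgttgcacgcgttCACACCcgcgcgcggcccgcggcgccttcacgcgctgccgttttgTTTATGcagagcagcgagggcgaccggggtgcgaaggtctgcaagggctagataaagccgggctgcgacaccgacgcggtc
Lfng (chr5:140607091-140607340, plus strand): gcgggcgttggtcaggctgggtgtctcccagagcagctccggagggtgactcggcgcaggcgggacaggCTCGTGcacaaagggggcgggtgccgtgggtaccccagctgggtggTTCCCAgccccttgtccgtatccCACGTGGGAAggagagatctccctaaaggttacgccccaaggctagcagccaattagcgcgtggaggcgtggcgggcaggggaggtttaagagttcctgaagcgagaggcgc

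Of the 10 genes, 9 matched an entry of the promoter table, and Dll1 had 2 windows. Both strands were searched for 7 short motifs, and the shares given are those among all 32851 windows of this length. The motif TGGGAA, bound by the Notch effector RBPJ, was found in Hes7, Lfng and Msgn1, and in 21.6% of all windows. CACNAG, the N-box bound by Hes repressors, was in Hes7, Lfng, Tbx6 and Msgn1, and in 36.7% of all windows. The E-box CACGTG was in Lfng alone among the 9 and in 6.02% of all windows, and it shared 2 bases with an RBPJ match. CTTTGA, the letters read by the Wnt effectors Tcf and Lef, occurred at 2 places in Msgn1, and the motif was in 13.8% of all windows. TTTATG, read by Cdx factors, was in Hes7, Msgn1 and Ripply2, and in 10.8% of all windows. The T-box letters GGTGTG were in Dll1, Ripply1 and Ripply2 (16.3% of all windows), and TATAAA was in Tbx6 and Ripply1 (12.4%). Dll3 and Mesp2 had none of the 7. A match describes letters and not occupancy, and the presence of RBPJ and N-box letters did not separate Lfng from the genes that were near 0 in the pair.

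Msgn1, the bHLH factor that drives progenitors from the tail bud into the presomitic mesoderm, was lowest of each age in the low posterior embryos. Its level was 17.9, 15.6, 0.104 and 17.8 TPM in Disp1_WT replicates 1 to 4, and a listed 0, 11.9, 18.6 and 12.6 TPM in Disp1_CS_INDEL replicates 1 to 4. At E8.5 it was 4.26, 39.7, 37.0 and 29.1 TPM in Myo10_WT and 26.2, 25.1, 21.9, 13.99 and 42.9 TPM in Myo10_m1J. The low E9.5 pair held at most 0.877% of the lowest other embryo, and Myo10_WT replicate 1 held 30.5%. Tbx6, the T-box factor without which paraxial cells become neural, followed the same embryos. It read 13.2, 11.9, 0.495 and 12.3 TPM in Disp1_WT and 0.491, 8.40, 11.3 and 9.91 TPM in Disp1_CS_INDEL. The E8.5 values were 2.49, 17.01, 12.7 and 11.02 TPM in Myo10_WT and 9.65, 10.5, 6.73, 5.09 and 13.2 TPM in Myo10_m1J. Each genotype at E9.5 thus had 1 embryo near 0.5 TPM and 3 between 8.40 and 13.2 TPM.

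**Figure D1:**
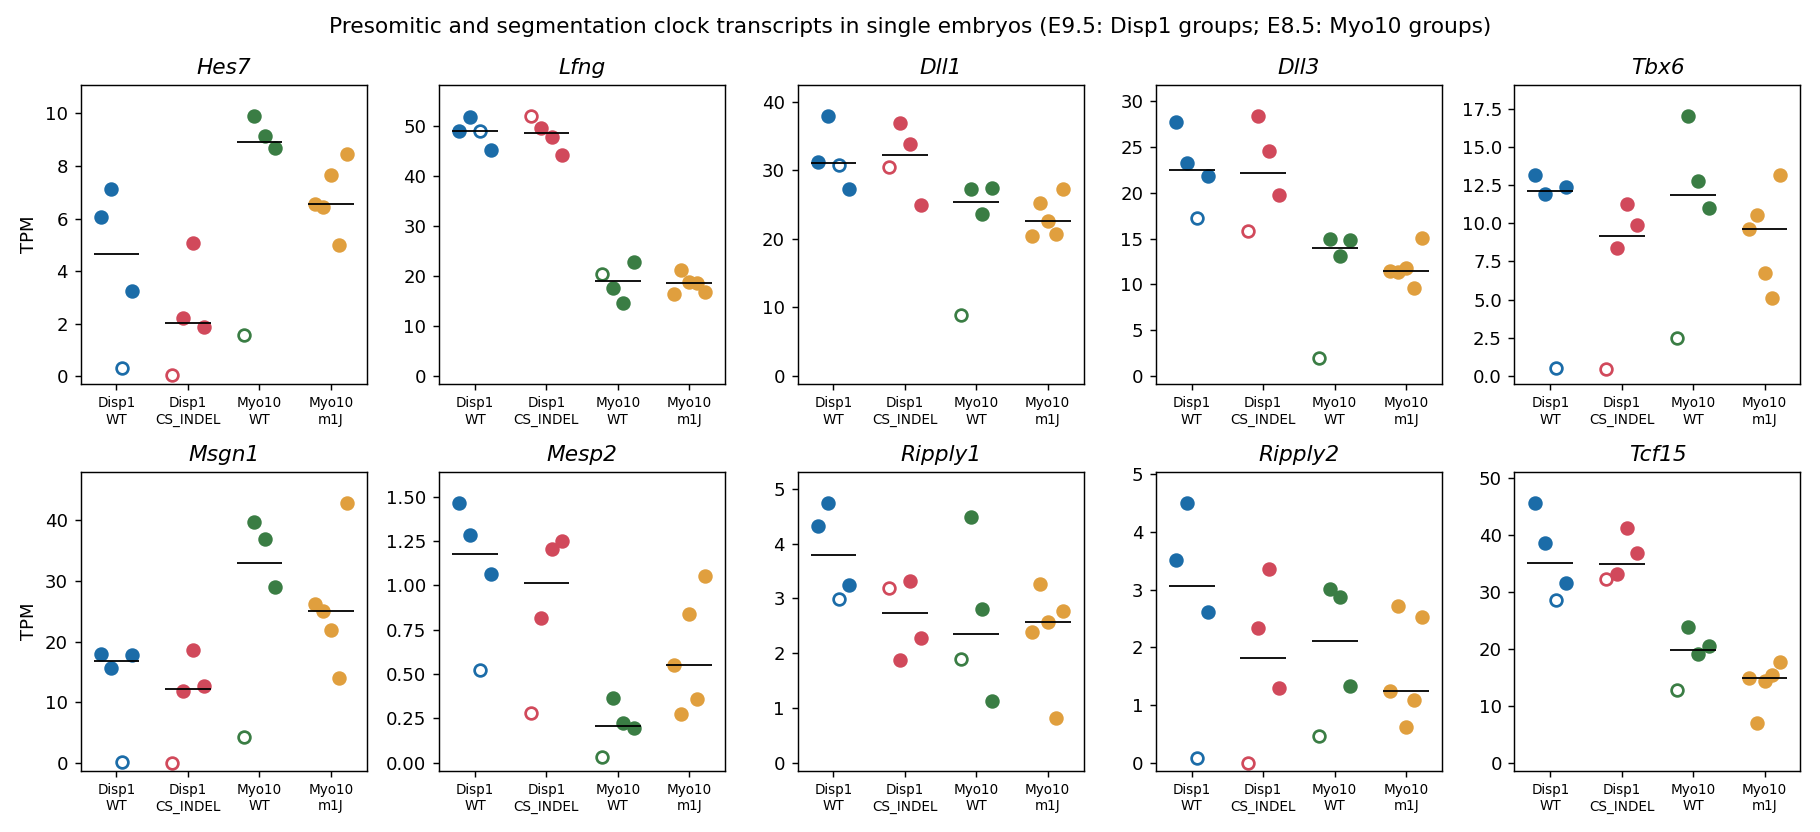
TPM of each of the 10 genes (vertical axes) in each embryo (points) by group, with a bar at the group median. Open points are the low posterior embryos. Msgn1, Tbx6, Hes7 and Ripply2 fall to near 0 in the open E9.5 points, while the Lfng points of both E9.5 groups lie together between 44.2 and 52.0 TPM.

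Hes7, the repressor at the core of the clock, read 6.04, 7.13, 0.318 and 3.22 TPM in Disp1_WT and 0.0377, 2.19, 5.06 and 1.87 TPM in Disp1_CS_INDEL. In Myo10_WT it was 1.56, 9.90, 9.14 and 8.69 TPM, and in Myo10_m1J 6.57, 6.44, 7.68, 5.00 and 8.47 TPM. Besides the low pair, the 6 other E9.5 embryos differed by 3.81-fold between the lowest and the highest. The SD of log2(TPM + 1) within genotypes, pooled over these 6, was 0.54 for Hes7, against a median of 0.15 over 3086 genes of similar level (a mean TPM within 2-fold). Over the 8 E8.5 embryos without the low one it was 0.21 for Hes7, against 0.20. Hes7 was thus above similar genes at E9.5 and near them at E8.5, and it was not alone in this. At E9.5 the SD of Ripply2 was 0.39 against 0.16 for its similar genes, that of Dll1 0.26 against 0.10 and that of Msgn1 0.24 against 0.12. At E8.5 that of Ripply1 was 0.56 against 0.22, that of Msgn1 0.47 against 0.17 and that of Tbx6 0.43 against 0.19.

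Lfng encodes Lunatic fringe, a glycosyltransferase that modifies Notch and cycles with the clock in the presomitic mesoderm. Its values were 49.0, 51.7, 49.0 and 45.2 TPM in Disp1_WT and 52.0, 49.5, 47.9 and 44.2 TPM in Disp1_CS_INDEL. At E8.5 they were 20.3, 17.6, 14.6 and 22.8 TPM in Myo10_WT and 16.4, 21.3, 18.9, 18.5 and 16.8 TPM in Myo10_m1J. Unlike Hes7, it was not lower in any of the 3 low posterior embryos than in all the others of its age. Its SD at E9.5 without the low pair was 0.09, equal to the median of 0.09 over 3776 genes of similar level. Lfng is also transcribed outside the presomitic mesoderm, and no value here separates these sources.

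Dll1, the Notch ligand of the presomitic mesoderm and of nascent neurons, read 31.3, 37.9, 30.8 and 27.3 TPM in Disp1_WT and 30.5, 36.9, 33.9 and 24.9 TPM in Disp1_CS_INDEL. The E8.5 levels were 8.89, 27.3, 23.6 and 27.4 TPM in Myo10_WT and 20.5, 25.2, 22.7, 20.8 and 27.3 TPM in Myo10_m1J. The low embryo at E8.5 held 43.5% of the lowest other, whereas the low pair at E9.5 lay inside the range of the rest. Dll3, a divergent ligand that acts inside the cell and damps Notch signalling, behaved alike at E8.5. It was 1.95, 15.0, 13.1 and 14.9 TPM in Myo10_WT and 11.5, 11.3, 11.8, 9.62 and 15.0 TPM in Myo10_m1J, so that the low embryo held 20.3% of the lowest other. In Disp1_WT it was 27.7, 23.3, 17.3 and 21.8 TPM, and in Disp1_CS_INDEL 15.9, 28.4, 24.6 and 19.7 TPM. The low pair held 87.6% and 80.5% of the lowest other E9.5 embryo, a far smaller shortfall than that of Msgn1 or Tbx6.

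Mesp2, the bHLH factor switched on in the presumptive somite ahead of each boundary, was the least abundant of the 10 in every group. It read 1.47, 1.28, 0.525 and 1.07 TPM in Disp1_WT and 0.280, 0.817, 1.21 and 1.25 TPM in Disp1_CS_INDEL. At E8.5 it was 0.0345, 0.367, 0.223 and 0.195 TPM in Myo10_WT and 0.553, 0.277, 0.839, 0.362 and 1.05 TPM in Myo10_m1J. The low posterior embryos were again the lowest of their ages. Ripply2, a corepressor that Mesp2 induces and that ends Tbx6 activity, was 3.52, 4.50, 0.0868 and 2.61 TPM in Disp1_WT and a listed 0, 2.34, 3.35 and 1.30 TPM in Disp1_CS_INDEL. Its E8.5 values were 0.456, 3.00, 2.88 and 1.33 TPM in Myo10_WT and 1.24, 2.72, 0.612, 1.08 and 2.52 TPM in Myo10_m1J. Ripply1, its close relative, did not follow this pattern. It read 4.33, 4.74, 2.99 and 3.25 TPM in Disp1_WT and 3.19, 1.88, 3.33 and 2.28 TPM in Disp1_CS_INDEL. In Myo10_WT it was 1.90, 4.48, 2.81 and 1.14 TPM, and in Myo10_m1J 2.39, 3.26, 2.56, 0.809 and 2.77 TPM. The low E9.5 pair held 159% and 170% of the lowest other embryo for Ripply1, against 6.66% and a listed 0 for Ripply2.

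Tcf15 (paraxis), the bHLH factor that keeps formed somites epithelial, was 45.6, 38.6, 28.6 and 31.6 TPM in Disp1_WT and 32.2, 33.1, 41.2 and 36.8 TPM in Disp1_CS_INDEL. The E8.5 values were 12.7, 23.8, 19.02 and 20.6 TPM in Myo10_WT and 14.9, 6.99, 14.3, 15.4 and 17.7 TPM in Myo10_m1J. The low E9.5 pair held 90.5% and 102% of the lowest other embryo, and at E8.5 the lowest value belonged to Myo10_m1J replicate 2, not to the low embryo. Over the 9 genes with a mean of at least 1 TPM, 5 were lower in both of the low E9.5 pair than in all 6 others, and 6 were lowest in Myo10_WT replicate 1, beside the 2.22% and 1.55% of all genes given above.

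**Figure D2:**
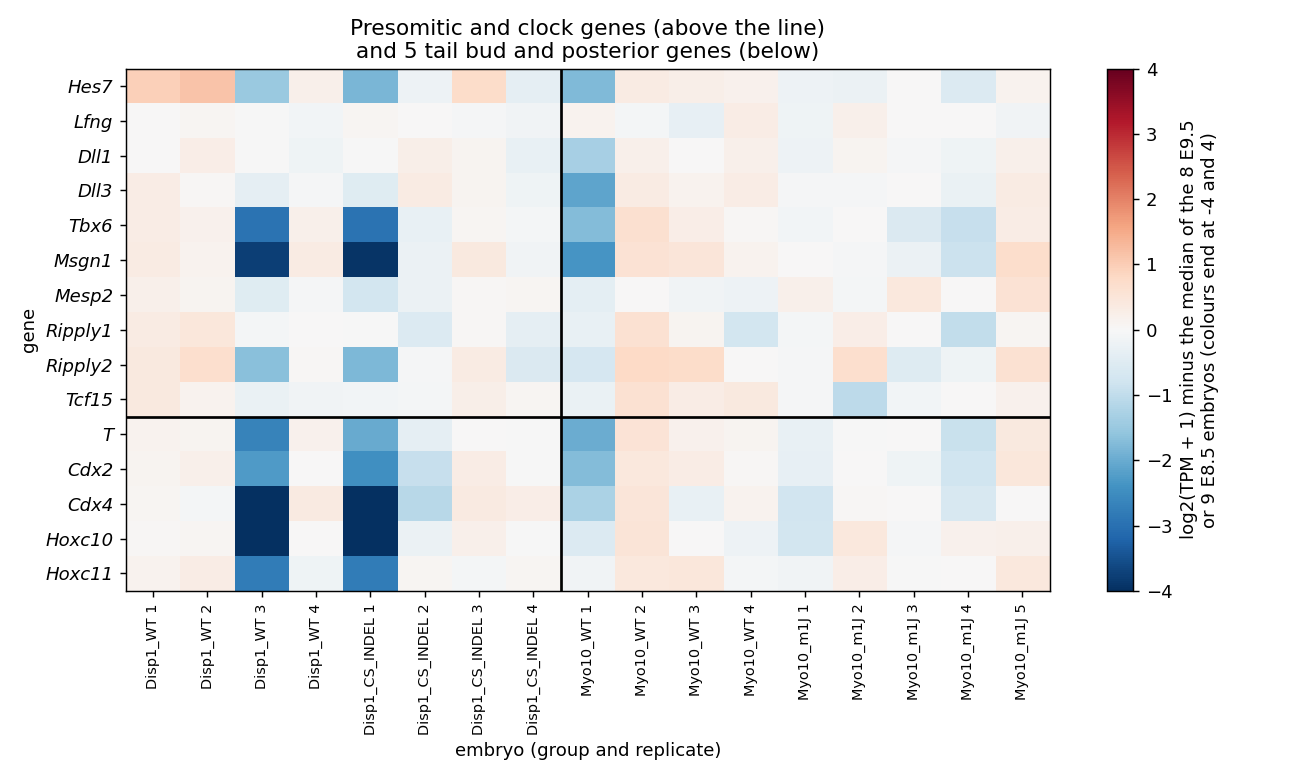
log2(TPM + 1) of each gene (rows) in each of the 17 embryos (columns, by group and replicate) as its difference from the median of its age, with 5 tail bud and posterior genes below the line. In the low posterior columns Msgn1, Tbx6, Hes7 and Ripply2 fall with T, Cdx2 and Cdx4 at E9.5, and Dll1 and Dll3 fall with them at E8.5.

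The genes ranked in the same order in both E9.5 groups when the low posterior embryos were left out, from Lfng through Tcf15, Dll1, Dll3, Msgn1, Tbx6, Hes7, Ripply1 and Ripply2 to Mesp2. In Disp1_WT this ran from 48.7 ± 3.28 TPM for Lfng to 1.27 ± 0.199 TPM for Mesp2 (SD, n = 3). Lfng, Tcf15, Dll1 and Dll3 overlapped with their neighbours in Disp1_WT, as did Hes7, Ripply1 and Ripply2, while Dll3, Msgn1, Tbx6 and Hes7 were apart from one another. At E8.5 Msgn1 led, with 35.2 ± 5.51 TPM in Myo10_WT (SD, n = 3) and 26.0 ± 10.6 TPM in Myo10_m1J (SD, n = 5). Dll1 came next in both, apart from Msgn1 in Myo10_WT and overlapping with it in Myo10_m1J, at 26.1 ± 2.18 and 23.3 ± 2.94 TPM. Tcf15, Lfng, Dll3 and Tbx6 followed in Myo10_WT, each overlapping with the next, and in Myo10_m1J Lfng and Tcf15 changed places, with overlapping values. Hes7, Ripply1, Ripply2 and Mesp2 were last in both.

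None of the 10 genes passed the test between Disp1_CS_INDEL and Disp1_WT, which asks whether the presomitic programme differs when Disp1 is mutated. Across 13294 genes, limma on log2(TPM + 1) with Benjamini-Hochberg adjustment called 4, which is 0.0301%. All 10 had overlapping groups, against 1.55% of all genes with groups that did not overlap. Of the 10 differences, 9 were below 0, with a median of -0.19 against 0.01 over all genes. The boundary genes Ripply1 (log2 fold change -0.40 ± 0.16 SE) and Ripply2 (-0.38 ± 0.54) and the clock repressor Hes7 (-0.62 ± 0.62) had the lowest estimates. Lfng (-0.01 ± 0.06), Dll1 (-0.02 ± 0.13), Dll3 (-0.04 ± 0.18) and Tcf15 (0.00 ± 0.14) lay next to 0. Msgn1 (-0.23 ± 1.09) and Tbx6 (-0.24 ± 0.82) had errors larger than their differences, because 1 embryo of each genotype was near 0. Mesp2 differed by -0.16 ± 0.21, and the adjusted p of limma was 1 for all 10. At an unadjusted p under 0.05, 1 of the 10 would have passed, Ripply1, and 2.26% of all genes. Leaving out single embryos moved Hes7 between -1.18 and -0.15, the first without Disp1_WT replicate 3 and the second without Disp1_CS_INDEL replicate 1.

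Leaving out the low E9.5 pair made the errors of Msgn1 and Tbx6 far smaller and again called none of the 10 (2 of 13085 genes were called, 0.0153%). All 10 differences were then below 0. Tbx6 was below the wild type in each embryo that remained, with 8.40 to 11.3 TPM in 3 Disp1_CS_INDEL embryos against 11.9 to 13.2 TPM in 3 Disp1_WT embryos. It was the only member whose groups did not overlap, and 4.33% of all genes were likewise lower without overlap. The pair left out had the lowest Tbx6 of all E9.5 embryos, so that share is not a fair measure for Tbx6. The log2 fold change of Tbx6 was -0.32 ± 0.11, beside -0.26 ± 0.15 for Msgn1, -0.71 ± 0.31 for Hes7, -0.56 ± 0.18 for Ripply1 and -0.47 ± 0.24 for Ripply2. Each adjusted p of limma was 1, and at an unadjusted p under 0.05 Tbx6 and Ripply1, 2 of the 10, would have passed, beside 2.90% of all genes.

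Among other genes of the pathway, none of 32 listed Notch and clock genes was called in the Disp1 comparison, and 26 of the 32 were above 0 with a median of 0.04. None of 21 other presomitic and somite genes was called either, with 15 above 0. At an unadjusted p under 0.05, 0 and 3 genes of these lists would have passed, beside 2.26% of all genes. Pax3, a factor of the dorsal somite and neural tube, had the smallest p of that list, at 0.36 ± 0.07 (limma adjusted p 0.34). Of 21 tested tail bud and posterior Hox genes none was called, 0 passed at an unadjusted p under 0.05 and 13 were below 0. The signs were not kept without the low pair. Then 20 of the 32 Notch and clock genes were below 0 (median -0.03), 13 of 21 presomitic and somite genes (median -0.03) and 15 of 21 tail bud and posterior genes (median -0.07). None was called, and 0, 3 and 1 genes passed at an unadjusted p under 0.05, beside 2.90% of all genes.

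In the Myo10 comparison, which asks the same of the Myo10 mutation at E8.5, none of the 9 genes tested was called, and 5 of the 9 differences were below 0. Limma called 1 of 12560 genes, 0.00796%, and 0 of the 9 passed at an unadjusted p under 0.05, beside 6.80% of all genes. The median of the 9 was -0.02, against -0.16 over all genes. Tcf15 had the lowest estimate, -0.46 ± 0.23 (adjusted p 0.47), and Dll3 the highest, 0.33 ± 0.41 (adjusted p 0.59). Dll1 differed by 0.20 ± 0.26, Msgn1 by 0.20 ± 0.51, Hes7 by 0.10 ± 0.36, Lfng by -0.02 ± 0.13, Ripply1 by -0.06 ± 0.28, Tbx6 by -0.07 ± 0.40 and Ripply2 by -0.10 ± 0.32. Mesp2 missed the filter of at least 1 TPM in at least 4 libraries. In a fit with no filter it differed by 0.41 ± 0.14 (limma adjusted p 0.61), with 4 of 5 Myo10_m1J embryos at or above 0.362 TPM and 3 of 4 Myo10_WT embryos at or below 0.223 TPM.

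The signs in this comparison moved with single embryos and with the scale. Without Myo10_WT replicate 2, 2 of the 9 were below 0 (median 0.21), and median-of-ratios scaling also left 2 below 0 (median 0.17). Without Myo10_WT replicate 1, the low posterior embryo, 8 of the 9 differences were below 0, with a median of -0.40 against -0.12 over all genes, and again none was called (0.00806% of 12405 genes). Tcf15 was then -0.63 ± 0.23, Tbx6 -0.58 ± 0.24, Msgn1 -0.50 ± 0.26, Hes7 -0.40 ± 0.15, Ripply2 -0.40 ± 0.28, Dll3 -0.27 ± 0.14, Dll1 -0.16 ± 0.13 and Ripply1 -0.14 ± 0.31. Lfng alone was above 0, at 0.02 ± 0.15. Every adjusted p of limma was at least 0.79, and at an unadjusted p under 0.05 Tcf15, Tbx6 and Hes7, 3 of the 9, would have passed, beside 1.52% of all genes. Hes7 and Tcf15 were lower in each of the 5 Myo10_m1J embryos than in each of the 3 wild-type embryos that remained, as were 1.14% of all genes. The embryo left out was recognised by low posterior values and had the lowest wild-type Hes7 and Tcf15. Leaving it out raises the wild-type means of such genes, so these shares over all genes are not a fair measure for them. Hes7 was 9.24 ± 0.613 TPM in the wild type (SD, n = 3) and 6.83 ± 1.32 TPM in the mutant (SD, n = 5), and Tcf15 was 21.1 ± 2.46 and 13.8 ± 4.04 TPM. The tail bud and posterior list moved in the same way, from 6 of 17 below 0 with all embryos (median 0.07) to 16 of 17 without this embryo (median -0.26).

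Transcripts of other cell types also differed among these embryos. Summed primitive erythroid markers were 4598 and 3088 TPM in Myo10_m1J replicates 2 and 4, and 75.0 to 441 TPM in the other 3 mutants. In the wild type they were 1629 TPM in replicate 1 and 275 to 440 TPM in the other 3. Summed decidua markers were 159 TPM in Myo10_m1J replicate 2 and 5.87 to 17.3 TPM in the other 8 embryos. Replicate 2 had the lowest Tcf15 of the mutants, and replicate 4 the lowest Hes7, Msgn1 and Tbx6. Without the low posterior embryo all 6 erythroid markers were above 0 (median 0.66), and none was called. With Myo10_m1J replicates 2 and 4 also left out, 8 of the 9 members were below 0 (median -0.25), none was called, and 3 passed at an unadjusted p under 0.05, beside 1.89% of 12214 genes. Hes7 was then -0.26 ± 0.15 and Tcf15 -0.42 ± 0.14, with a limma adjusted p of 0.98 for both. Their groups still did not overlap, and 4.44% of all genes were likewise lower without overlap. This fit again left out the low posterior embryo, so that share is not a fair measure for Hes7 and Tcf15. With those 2 mutants left out and the low embryo kept, 3 of the 9 were below 0 (median 0.08).

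**Figure D3:**
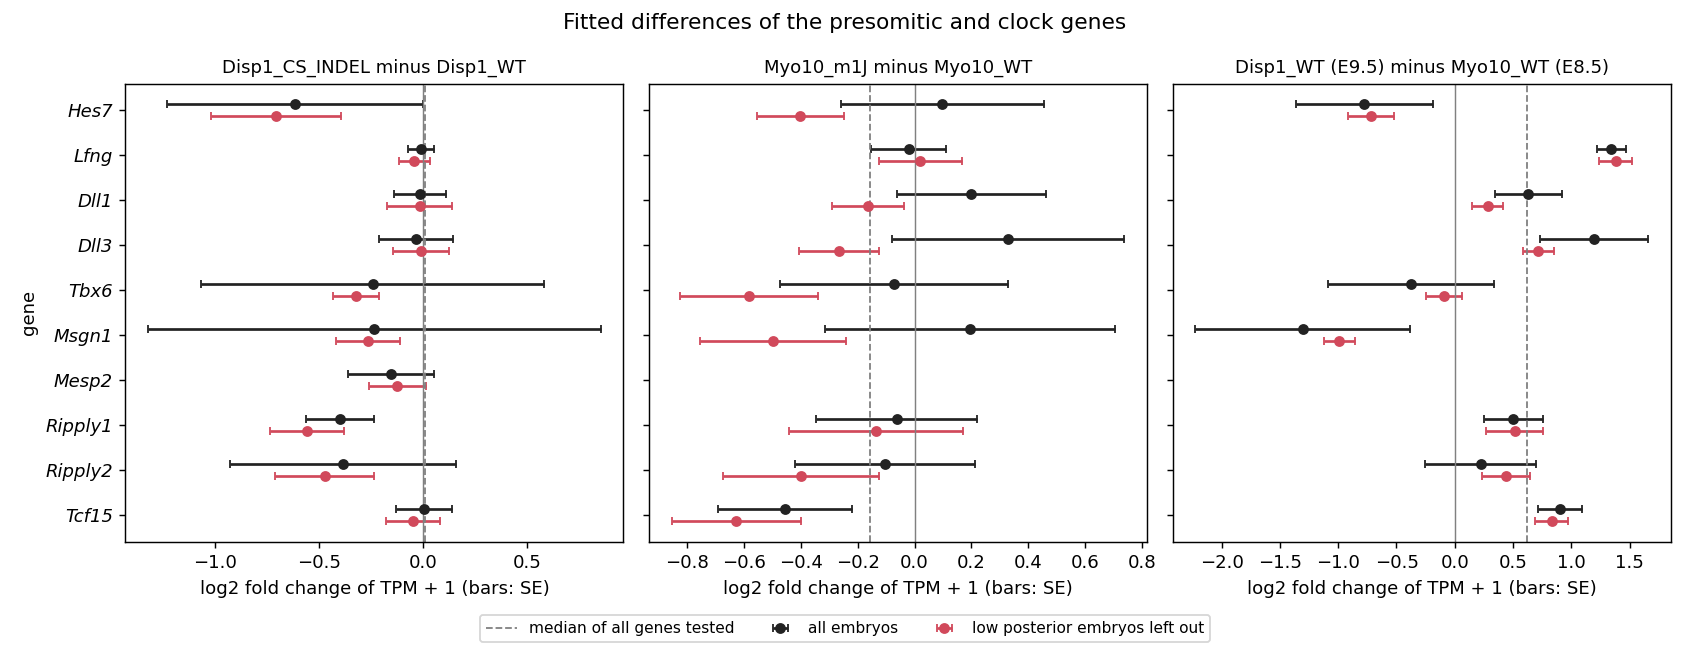
Fitted log2 fold change of TPM + 1 (horizontal axes, bars SE) of each gene in the Disp1, Myo10 and age comparisons, with all embryos (black) and with the low posterior embryos left out (red); dashed lines are the median of all genes tested. In the age panel 6 of the 9 genes drawn lie above 0 with all embryos, among them Lfng, Tcf15 and Dll3, which were called. Msgn1 and Hes7 have short bars below 0 there once the low posterior embryos are left out. Mesp2 is not drawn where it missed the filter.

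Of the other listed genes, none of 31 Notch and clock genes and none of 18 presomitic and somite genes was called in the Myo10 comparison. Of these, 28 and 13 were below 0, with medians of -0.19 and -0.18, close to the -0.16 of all genes. The smallest p values belonged to Bcl9l (-0.55 ± 0.22), Dact1 (-0.27 ± 0.11) and Axin2 (-0.33 ± 0.14), and to Foxc2 (-0.46 ± 0.16), a factor of the paraxial mesoderm. Their adjusted p in limma was 0.47. At an unadjusted p under 0.05, 6 of the 31 and 2 of the 18 would have passed, beside 6.80% of all genes. Without Myo10_WT replicate 1 the 6 became 1, Lef1 (-0.41 ± 0.16), a Wnt effector, beside 1.52% of all genes. The 2 of the 18 were then Foxc2 (-0.45 ± 0.18) and Meox1 (-0.49 ± 0.20), a factor of formed somites, and every adjusted p of limma was at least 0.79.

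The effects of the mutations were set against each other in 1 fit of all 17 libraries, in which age and mutation cannot be told apart. None of the 10 genes was called for the difference of the effects (Disp1 minus Myo10), nor were more than 3 of 13910 genes, 0.0216%. Mesp2 had the smallest p, at -0.56 ± 0.27 (limma adjusted p 0.59), and was the 1 member with an unadjusted p under 0.05, beside 4.95% of all genes. Hes7 differed by -0.71 ± 0.78 and Tcf15 by 0.46 ± 0.31. None of the 10 was called when the 3 low posterior embryos were left out, where 0.00729% of all genes were, and 0 of the 10 had an unadjusted p under 0.05, beside 1.11% of all genes.

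Wild-type embryos of the 2 ages differed more widely. They came from separate experiments, so age and experiment cannot be told apart. Their tissues also differed, with summed primitive erythroid markers of 29309 to 39226 TPM in Disp1_WT and 275 to 1629 TPM in Myo10_WT, and summed yolk sac endoderm markers of 49.0 to 963 TPM and 809 to 2495 TPM. Their part in the results was not tested. Lfng was 48.7 ± 2.68 TPM in Disp1_WT at E9.5 and 18.8 ± 3.51 TPM in Myo10_WT at E8.5 (SD, n = 4 each), a log2 fold change of 1.34 ± 0.12 (limma adjusted p 1.7e-06). Tcf15 was higher by 0.90 ± 0.19 (adjusted p 0.001) and Dll3 by 1.19 ± 0.46 (adjusted p 0.033). These 3 of 9 tested genes were called, all higher at E9.5, whereas limma called 79.6% of all 13397 genes (69.4% higher and 10.2% lower). The median over all genes was itself 0.62, so Dll1 at 0.63 ± 0.29 and Ripply1 at 0.50 ± 0.25 were near that median and not called (adjusted p 0.065 and 0.09). Dll3 passed only narrowly, and leaving out Disp1_WT replicate 1, 2 or 4 lost its call. Mesp2, which missed the filter, was 1.09 ± 0.408 TPM in Disp1_WT and 0.205 ± 0.136 TPM in Myo10_WT (SD, n = 4 each), without overlap, as were 66.1% of all genes in the same direction, and a fit with no filter gave 0.78 ± 0.15 (adjusted p 0.002).

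Msgn1 and Hes7 were below 0 with all embryos and were called lower when the low posterior embryos, 1 of each group, were left out. Msgn1 was 17.1 ± 1.30 TPM in 3 Disp1_WT embryos and 35.2 ± 5.51 TPM in 3 Myo10_WT embryos, a log2 fold change of -0.99 ± 0.13 (limma adjusted p 2.1e-06). Hes7 was 5.46 ± 2.02 and 9.24 ± 0.613 TPM, a change of -0.72 ± 0.20 (adjusted p 0.0027). With all embryos Msgn1 was -1.31 ± 0.92 (adjusted p 0.21) and Hes7 -0.78 ± 0.59 (adjusted p 0.24), so neither was called. The embryos left out were recognised by low values of posterior genes, and Msgn1 and Hes7 were lowest of their groups in the same embryos. The errors shrank with that choice, so the limma p-values without these embryos describe and do not test. Leaving out Myo10_WT replicate 1 alone also called both genes lower, Hes7 at -1.28 ± 0.48 (limma adjusted p 0.027) and Msgn1 at -1.998 ± 0.80 (adjusted p 0.035). That fit kept the low Disp1_WT replicate 3, and it called 9648 of 13128 genes higher and 1071 lower. Leaving out Disp1_WT replicate 3 alone called no member lower. With each library left out in turn, the highest estimates were -0.30 for Msgn1 and -0.22 for Hes7. Tbx6 was not called with all embryos (-0.38 ± 0.72) or without the low posterior ones (-0.09 ± 0.15). In the fit without the low embryos, 79.3% of 12256 genes were called, 71.6% higher and 7.62% lower.

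Several of these depended on the scale. Under median-of-ratios scaling, which brought the median of all genes to 0.01 and the calls to 4858 higher and 4821 lower, only Lfng of the 9 was called (0.68 ± 0.12, limma adjusted p 0.00062). Tcf15 was then 0.24 ± 0.22 and Dll3 0.56 ± 0.54. With both the scaling and the low embryos left out, Lfng stayed higher at 0.66 ± 0.15, and Msgn1 (-1.70 ± 0.12), Hes7 (-1.36 ± 0.19), Tbx6 (-0.78 ± 0.10) and Dll1 (-0.44 ± 0.10) were called lower. In that fit 4188 of 12282 genes were called higher and 4163 lower. Lfng was thus called higher at E9.5 in all of these fits. Msgn1 and Hes7 were called lower only in the fits without low embryos, which were picked for low values of related genes.

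Other genes of the programme were read in the same age fit. Of 32 Notch and clock genes, 19 were called higher and 6 lower, beside the 69.4% and 10.2% of all genes. Heyl (3.13 ± 0.11) and Hes5 (3.49 ± 0.27), Notch targets, Nrarp (2.32 ± 0.17), a Notch feedback inhibitor, and Mfng (2.69 ± 0.18), the sister enzyme of Lfng, were higher. Dusp4 (-1.16 ± 0.13), a phosphatase of the FGF pathway that cycles in the presomitic mesoderm, and Sp5 (-1.09 ± 0.17), a Wnt target, were lower. Also lower were Notch2 (-0.65 ± 0.11), a Notch receptor, Jag1 (-0.65 ± 0.14), a Notch ligand, Spry4 (-0.48 ± 0.15) and Dkk1 (-0.45 ± 0.17). The Wnt pathway genes Bcl9l (1.79 ± 0.20) and Nkd1 (0.87 ± 0.10) were higher, so neither the Notch nor the Wnt genes all went the same way. Among 22 presomitic and somite genes, 16 were called higher and 1 lower, Epha4 (-0.77 ± 0.08). Pax1 (3.95 ± 0.13), a sclerotome factor, Meox2 (2.77 ± 0.17) and Uncx (2.70 ± 0.18), factors of formed somites, were among the higher. Of 19 tested tail bud and posterior genes, 7 were called each way. Hoxc10 (3.61 ± 1.04) was higher, and Cdx1 (-2.98 ± 0.53), Nkx1-2 (-2.76 ± 0.58) and Cdx2 (-2.43 ± 0.59), factors of the tail bud and its progenitors, were lower. Without the low posterior embryos, 17 of 31 Notch and clock genes were called higher and 6 lower, beside the 71.6% and 7.62% of all genes. Of 20 presomitic and somite genes 14 were then higher and 4 lower, Epha4 (-0.77 ± 0.12), Pcdh19 (-0.84 ± 0.16), Mesp1 (-1.02 ± 0.21) and Cer1 (-0.92 ± 0.29). Of the 19 tail bud and posterior genes 8 were higher and 10 lower.

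Ratios between members of 1 embryo do not depend on the scaling of its library. They were chosen after the values were seen, and are given without a test. Msgn1 over Tbx6 was 1.27 to 1.65 in the 6 E9.5 embryos outside the low pair (median 1.39) and 2.33 to 3.26 in the 8 E8.5 embryos outside the low one (median 2.73). The ages did not overlap, and Myo10_WT replicate 1 lay between them at 1.71. Lfng over Dll1 was 1.34 to 1.77 at E9.5 and 0.615 to 0.893 at E8.5, also apart. Dll3 over Dll1 was 0.614 to 0.886 at E9.5 and 0.449 to 0.560 at E8.5. It was 0.561 and 0.521 in the low E9.5 pair and 0.219 in Myo10_WT replicate 1, so that Dll3 was lower relative to Dll1 in each low embryo than in every other of its age. Hes7 over Tbx6 overlapped between the ages, at 0.189 to 0.597 and 0.582 to 1.14. So did the remaining ratios computed. Hes7 over Msgn1 was 0.148 to 0.456 at E9.5 and 0.198 to 0.357 at E8.5. Ripply1 over Ripply2 was 0.802 to 1.75 and 0.746 to 4.19. Mesp2 over Ripply2 was 0.285 to 0.958 and 0.0776 to 1.37. Tcf15 over Tbx6 was 2.56 to 3.94 and 0.664 to 3.02. How often ratios of other genes separate the ages was not computed.

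**Figure D4:**
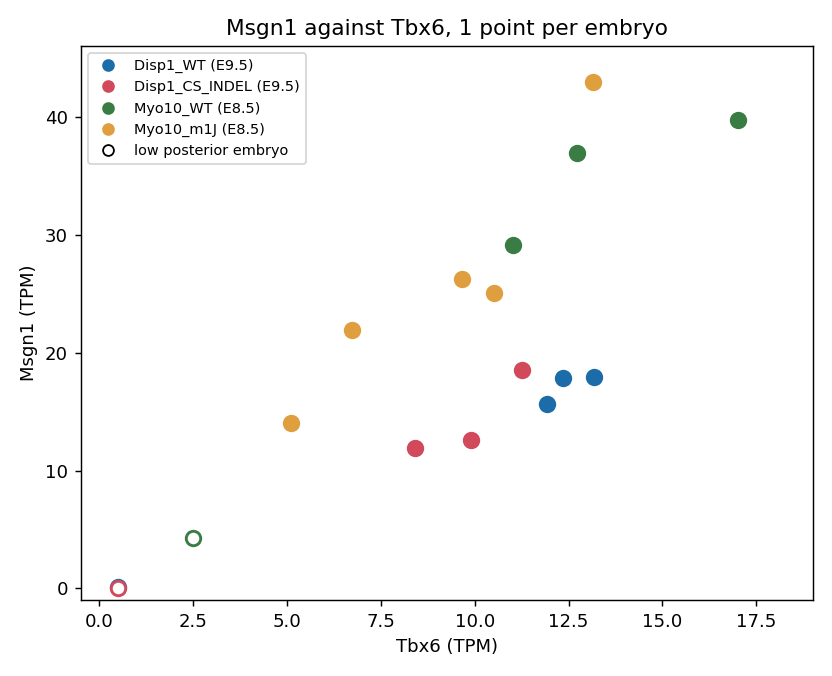
Msgn1 against Tbx6 (both in TPM), 1 point per embryo, colored by group, with open points for the low posterior embryos. Among the filled points the E8.5 embryos lie on a steeper line than the E9.5 embryos, with ratios of 2.33 to 3.26 and 1.27 to 1.65. The low E9.5 pair lies near the origin, and Myo10_WT replicate 1 has a ratio of 1.71.

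Likeness was measured as Pearson's r between deviations of log2(TPM + 1) from the group means, as a description over embryos that share libraries and scaling. Tbx6 and Msgn1 were the most alike of the members, with r of 0.994 over 17 embryos and 0.915 over the 14 left without the low posterior ones. Dll1 and Dll3 had 0.920 and 0.728. Hes7 was most like Msgn1 over 17 embryos (0.941) and most like Dll1 over 14 (0.608). Ripply1 was most like Ripply2 over 17 (0.392) and most like Tbx6 over 14 (0.773). Lfng was like no other member over 17 embryos, its highest r being -0.02 with Dll1, and over 14 it was 0.48 with the same gene. Of 13196 other genes, those most like the mean of the members over 17 embryos were T (0.971), Cdx2 (0.963), Peli3 (0.958), Evx1os (0.958) and Evx1 (0.945). T is brachyury, the mesoderm factor of the tail bud, and Cdx2 and Evx1 are also tail bud factors. Over 14 embryos they were Bcl7b (0.959), Ddi2 (0.943), Rpl36 (0.942), Emc1 (0.940) and Lsm4 (0.936), with no tail bud gene among them. In these 14, T had 0.751, Cdx2 0.740, Peli3 0.782, Evx1os 0.632 and Evx1 0.656.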

How the data were processed

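Gene values came from 1 deposited table of TPM for single whole embryos, scaled by the authors to gene length and to a fixed total. Per the labels' protocols, embryos were frozen singly, extracted with RNeasy Micro columns, and made into TruSeq libraries for NovaSeq sequencing. The submitters' processing notes name GRCm39 (mm39). Aligner, quantifier and annotation: not given in the sources used here. Depth cannot be recovered from TPM, and no counting interval or detection limit is printed. Genes at 1 TPM or more numbered 13103 to 13408 per library at E9.5 and 11926 to 12957 at E8.5.

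Groups were read from the sample titles. Tests used log2(TPM + 1), a scale that understates changes of genes near or below 1 TPM, and limma 3.58.1 (R 4.3.3, trended variances) tested every gene that reached 1 TPM in 4 or more libraries of the fit, with p-values adjusted by Benjamini-Hochberg over all genes and a threshold of 0.05. Each experiment was fitted alone, the wild types of both ages in 1 fit, and the difference of the mutant effects over all 17 libraries. The fits were checked on simulated data with independent noise for each gene. Differences shared by many genes of an embryo, as in the low posterior embryos, were not simulated. The members and all lists (other Notch and clock genes, other presomitic and somite genes, tail bud and posterior Hox genes, and yolk sac, decidua, erythroid and neural markers) were chosen with earlier results of these data known. All members are named. Of the lists, only called genes or, without a call, the 3 with the smallest p were eligible for naming, apart from Hoxc10 as an example of the low embryos. Promoter windows came from RefSeq on GRCm38.p6, not the authors' build, and were used for sequence only. The alternatives tried changed the pseudocount (0.1), the filter (none, or a mean of at least 5 TPM), the scaling (median-of-ratios), the trend (none) and the samples (all libraries fitted together, a replicate block, or any single library left out). Leaving out the low posterior embryos together, also with scaling, and leaving out the Myo10_m1J embryos high in erythroid transcripts were added after seeing the data. No library was left out of the main results.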

Additional observations from a re-analysis of the deposited data

Results flagged for a closer look

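In 4 of 40 combinations of gene and group, 1 embryo lay further from the others of its group than Dixon's criterion allows. For independent groups of normal values, chance alone gives about 1 such embryo in 20 groups. The members vary together in the same embryos, so that rate cannot be set against these 4. In Disp1_WT, replicate 3 was the lowest of 4 for Tbx6 (0.495 TPM) and for Msgn1 (0.104 TPM). In Myo10_WT, replicate 1 was the lowest of 4 for Hes7 (1.56 TPM) and for Dll3 (1.95 TPM). Both are low posterior embryos, and the cause was not tested. Disp1_CS_INDEL replicate 1, the other low posterior embryo, met the criterion for no member.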

How the results depend on the processing

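No member was called in the Disp1 or Myo10 comparison, or for the difference of the mutant effects, under any alternative run, with single libraries left out included. In the age comparison 3 members were called with all embryos. The number was 1 with median-of-ratios scaling, 5 in 1 fit of all 17 libraries, 5 without the low posterior embryos, 5 with both that and the scaling, and 2 to 6 with each library left out in turn, the 6 without Myo10_WT replicate 1. These counts stand beside the 79.6% of all genes called with all embryos. Scaling called 4858 genes higher and 4821 lower of 13333, and the fit of all 17 libraries 9613 and 1523 of 13910. Without the low posterior embryos 79.3% were called, and with the scaling as well 4188 higher and 4163 lower of 12282. Without Disp1_WT replicate 1, with 2 members called, 8363 genes were higher and 1228 lower of 12750. Without Myo10_WT replicate 1 they were 9648 and 1071 of 13128. The call of Dll3 was lost with no filter and without Disp1_WT replicate 1, 2 or 4, the latter with an adjusted p of limma of up to 0.072. Lfng was called in all of these.

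Shared replicate numbers did not generally mark embryos that were alike. Deviations of same-numbered embryos correlated between -0.29 and 0.46, and only number 4 was most like its own in each comparison. With a replicate block the age comparison called 5 members, beside 9508 genes higher and 1462 lower of 13397. The Disp1, Myo10 and difference fits with the block called no member. In the Myo10 fit the block turned Lfng to 0.0086 and Msgn1 to -0.00087. The genes called there rose from 1 lower to 1 higher and 45 lower of 12560. Those at an unadjusted p of limma under 0.05 rose from 6.80% to 36.4%. In the difference fit that share rose from 4.95% to 22.4%.

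Several uncalled log2 fold changes near 0 changed sign. In the Disp1 comparison Tcf15 became -0.0065 with scaling, -0.050 without the low posterior embryos and -0.026 with both, and with both Dll3 became 0.014 and Dll1 0.0086. With each library left out in turn, Tcf15 ranged from -0.097 to 0.12, Lfng from -0.046 to 0.031, Dll3 from -0.16 to 0.11, Mesp2 from -0.30 to 0.020, Tbx6 from -1.03 to 0.47, Ripply2 from -0.90 to 0.037, Msgn1 from -1.24 to 0.74 and Dll1 from -0.093 to 0.089. In the Myo10 comparison scaling gave Lfng 0.17, Tbx6 0.090 and Ripply1 0.062. Scaling without the low posterior embryo gave Lfng 0.15, Dll3 -0.14, Hes7 -0.28, Msgn1 -0.36 and Dll1 -0.029. Leaving out Myo10_m1J replicates 2 and 4, which are high in erythroid transcripts, gave Tbx6 0.060 and Ripply1 0.083; with the low posterior embryo left out as well, Dll3 became -0.16, Hes7 -0.26, Msgn1 -0.25, Dll1 -0.15 and Ripply1 0.010. With each library left out, Lfng ranged from -0.13 to 0.07, Dll3 from -0.27 to 0.55, Tbx6 from -0.58 to 0.21, Ripply2 from -0.40 to 0.086, Hes7 from -0.40 to 0.30, Msgn1 from -0.50 to 0.49, Dll1 from -0.16 to 0.34 and Ripply1 from -0.28 to 0.17. In the age comparison scaling gave Ripply2 -0.21, Dll1 -0.025 and Ripply1 -0.00017, and scaling without the low posterior embryos gave -0.11, -0.44 and -0.037. With each library left out, Tbx6 ranged from -0.89 to 0.42 and Ripply2 from -0.073 to 0.73. The cause was not tested. Depth limits are unknown because TPM keeps none.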
